A study of Mus musculus with 10 samples.

Results

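The genes of mitosis and DNA replication were followed in the pons, medulla and rostral spinal cord of newborn mice that had or lacked the transcription factor Nkx2.2. A list of 50 cell cycle genes was read from expression arrays through every probe set whose gene symbol field names one of them. Of the 50, 49 were read by 121 probe sets, out of 45037 probe sets for 18193 genes in the whole series, and Ccnb1 was not analysed here. They comprised 27 genes of mitosis, 20 genes of the S phase and its onset, and the 2 D cyclins Ccnd1 and Ccnd2, which act earlier, in G1.

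The mice were C57BL/6 and 1.5 to 2 days old. The 5 controls were wild type (replicates 14, 15, 16, 18 and 21) and the 5 mutants were Nkx2.2-/- (replicates 11, 12, 22, 29 and 43), described as littermates. Each array held RNA of the pons, medulla and rostral spinal cord of 1 mouse, dissected from 20 µm sections. Nothing in the labels names an agent given to either group other than the pentobarbital overdose before perfusion, and the targeted part of the Nkx2-2 gene and the mating scheme are not given in the sources used here. The question was which transcripts differ without Nkx2.2.

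A cell about to divide copies its DNA in S phase and parts the copies in mitosis. Minichromosome maintenance proteins (Mcm2 to Mcm7), loaded at origins by Cdc6 and Cdt1, unwind the DNA together with Cdc45 and the GINS complex, while Pcna clamps the polymerases to it and ribonucleotide reductase supplies the nucleotides. Entry into mitosis is driven by Cdk1 with cyclins A and B, and exit by the anaphase-promoting complex with Cdc20 and Ube2c. Transcripts of both sets are abundant in cycling cells and scarce in neurons that have left the cycle. In the newborn hindbrain the cells that still divide include glial precursors and the granule neuron precursors of the cerebellum. A whole-tissue array cannot tell fewer cycling cells from less of a transcript in each cycling cell.

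Genes of the 2 phases are known to be switched on through different promoter elements. Mitotic promoters are known for CCAAT boxes and for the cell cycle genes homology region (CHR), and S-phase promoters for E2F sites. These elements were searched in RefSeq promoter windows of build GRCm38.p6, from 250 bases before to 50 after each transcription start, on both strands. The CHR was taken as TTTGAA or TTCGAA, the CCAAT box as CCAAT, and the E2F site as TTTGGCGC, TTTCGCGC, TTTCCCGC or TTTGCCGC. TTCGAA reads the same on both strands, and E2F matches of opposite strands can overlap, as they do in Mcm6. Windows were matched for 22 of the 27 mitotic genes and 16 of the 20 S-phase genes.

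A CHR and a CCAAT box stood together in the windows of 17 of the 22 mitotic genes (77.3%), of 4 of the 16 S-phase genes (25.0%) and of 9.65% of all 27025 genes in the table. An E2F site was found in 1 of the 22 mitotic genes, Cdk1 (4.55%), in 7 of the 16 S-phase genes (43.8%) and in 2.61% of all genes. The median G+C content of the windows was 58.8% for mitotic genes, 57.7% for S-phase genes and 52.7% for all. The matches describe letters in these windows and do not show binding. Among mitotic genes the median log2 difference between genotypes was -0.25 over the 17 genes with both elements and -0.29 over the 5 without both.

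The following 170-base stretches are examples, chosen with the matches known: 5 mitotic genes whose windows hold both elements, Birc5, a mitotic gene of similar difference whose window holds none of the 3, and the S-phase genes Mcm6 and Rrm2. Each runs 5′ to 3′ along its gene and ends 20 bases past the start, with CHR, CCAAT and E2F matches of either strand in capitals.
Ccnb2, chr9:70421535-70421704, minus strand: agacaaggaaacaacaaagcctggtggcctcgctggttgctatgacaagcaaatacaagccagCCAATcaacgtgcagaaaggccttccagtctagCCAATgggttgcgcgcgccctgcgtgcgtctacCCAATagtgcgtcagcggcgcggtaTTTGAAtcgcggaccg
Cdk1, chr10:69352893-69353062, minus strand: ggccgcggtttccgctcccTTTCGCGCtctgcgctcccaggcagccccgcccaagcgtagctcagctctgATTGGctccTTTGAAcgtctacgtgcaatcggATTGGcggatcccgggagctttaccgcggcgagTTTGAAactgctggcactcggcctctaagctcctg
Top2a, chr11:99024170-99024339, minus strand: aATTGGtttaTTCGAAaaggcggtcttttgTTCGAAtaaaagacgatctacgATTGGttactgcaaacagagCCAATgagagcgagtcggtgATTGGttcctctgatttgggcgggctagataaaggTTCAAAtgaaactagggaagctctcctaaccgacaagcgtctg
Ube2c, chr2:164769779-164769948, plus strand: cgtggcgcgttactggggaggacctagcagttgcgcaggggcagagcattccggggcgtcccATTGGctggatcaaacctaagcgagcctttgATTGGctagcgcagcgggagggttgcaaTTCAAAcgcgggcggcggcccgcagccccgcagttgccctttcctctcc
Mki67, chr7:135716360-135716529, minus strand: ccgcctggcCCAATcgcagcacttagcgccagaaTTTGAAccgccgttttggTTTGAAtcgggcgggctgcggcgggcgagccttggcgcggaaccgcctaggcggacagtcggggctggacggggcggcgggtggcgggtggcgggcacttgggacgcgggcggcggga
Birc5, chr11:117849087-117849256, plus strand: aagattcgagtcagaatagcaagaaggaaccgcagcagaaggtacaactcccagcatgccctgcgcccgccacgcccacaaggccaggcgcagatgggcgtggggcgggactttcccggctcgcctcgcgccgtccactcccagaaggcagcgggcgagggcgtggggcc
Mcm6, chr1:128359686-128359855, minus strand: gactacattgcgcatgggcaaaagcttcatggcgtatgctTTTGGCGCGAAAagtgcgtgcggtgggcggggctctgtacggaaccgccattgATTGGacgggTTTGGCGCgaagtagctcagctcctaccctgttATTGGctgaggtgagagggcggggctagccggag
Rrm2, chr12:24708104-24708273, plus strand: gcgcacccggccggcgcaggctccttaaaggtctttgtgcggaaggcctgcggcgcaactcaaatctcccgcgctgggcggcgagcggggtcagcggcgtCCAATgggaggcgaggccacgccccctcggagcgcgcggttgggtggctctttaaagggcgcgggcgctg

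In these stretches Ccnb2, Cdk1, Top2a, Ube2c and Mki67, all mitotic, each hold at least 1 CHR and 1 CCAAT box, and Birc5 holds no match. Mcm6, of the replicative helicase, holds E2F matches, CCAAT boxes and no CHR, and Rrm2, of ribonucleotide reductase, holds a CCAAT box alone.

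Each array gave log2 RMA values between 3.52 and 13.2, with array medians from 5.07 to 5.12 and correlations between arrays of 0.972 to 0.996. The Nkx2-2 probe set lay at 6.55 ± 0.186 in wild type and 4.51 ± 0.207 in Nkx2.2-/- mice (SD, n = 5 each; limma adjusted p = 3.50e-05). Wild-type replicate 14 and Nkx2.2-/- replicate 43 had a 5 prime Gapdh control signal lower than the 3 prime one by 2.13 and 3.78 on the log2 scale, against -0.32 to 0.13 on the other 8 arrays. The mean over 5 genes of hindbrain identity was 6.24, 6.16, 6.08, 5.83 and 6.16 in the wild-type mice and 5.74, 6.22, 5.98, 6.34 and 6.36 in the Nkx2.2-/- mice, in the order of the replicates above, lowest in wild-type 18 and in mutant 11, and cerebellar and caudal Hox markers also differed between mice as given below. The arrays named here and below were therefore left out in turn.

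Cell cycle genes were lower in sign in the Nkx2.2-/- mice for 47 of the 49 members, but none passed the test over all genes. Of all 18193 genes 53% were lower in sign, a share that was 44.6% after quantile normalization and 33.5% with a common median. The median log2 difference, Nkx2.2-/- minus wild type, was -0.23 over mitotic members, -0.19 over S-phase members and -0.0042 over all genes. By limma with Benjamini-Hochberg adjustment over all genes, 0 of the 49 members passed in either direction, where 0.0605% of all genes passed as lower and 0% as higher. At an unadjusted limma p under 0.05, 21 members were lower and 0 higher, 16 mitotic and 5 of S phase, against 2.71% of all genes lower and 0.517% higher. The lowest adjusted p among members was 0.749.

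The mean over the 27 mitotic members was 5.61, 5.60, 5.58, 6.03 and 5.59 in the wild-type mice and 5.67, 5.35, 5.29, 5.22 and 5.31 in the Nkx2.2-/- mice, each given in the order of the replicates above. Wild-type replicate 18 stood above the other 4 wild-type mice, which lay within 5.58 to 5.61, and Nkx2.2-/- replicate 11 stood above its group and above those same 4. The other 4 Nkx2.2-/- mice lay below every wild-type mouse. The group means were 5.68 ± 0.195 and 5.37 ± 0.176 (SD, n = 5 each), a difference of -0.31 on the log2 scale, or 1.24-fold lower.

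The mean over the 20 S-phase members was 6.00, 6.01, 5.97, 6.37 and 6.05 in the wild-type mice and 6.02, 5.85, 5.80, 5.87 and 5.86 in the Nkx2.2-/- mice. The same pair of mice, wild-type 18 and Nkx2.2-/- 11, was highest in each group, and again 4 of 5 Nkx2.2-/- mice lay below the lowest wild-type mouse. The group means were 6.08 ± 0.163 and 5.88 ± 0.0830 (SD, n = 5 each), a difference of -0.20, or 1.15-fold lower. Over all 49 members the wild-type mean was 5.91 ± 0.186 and the Nkx2.2-/- mean 5.64 ± 0.137 (SD, n = 5 each), which differ by -0.27. No p-value is given for these means, since the members were chosen with earlier results of these data known.

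**Figure D1:**
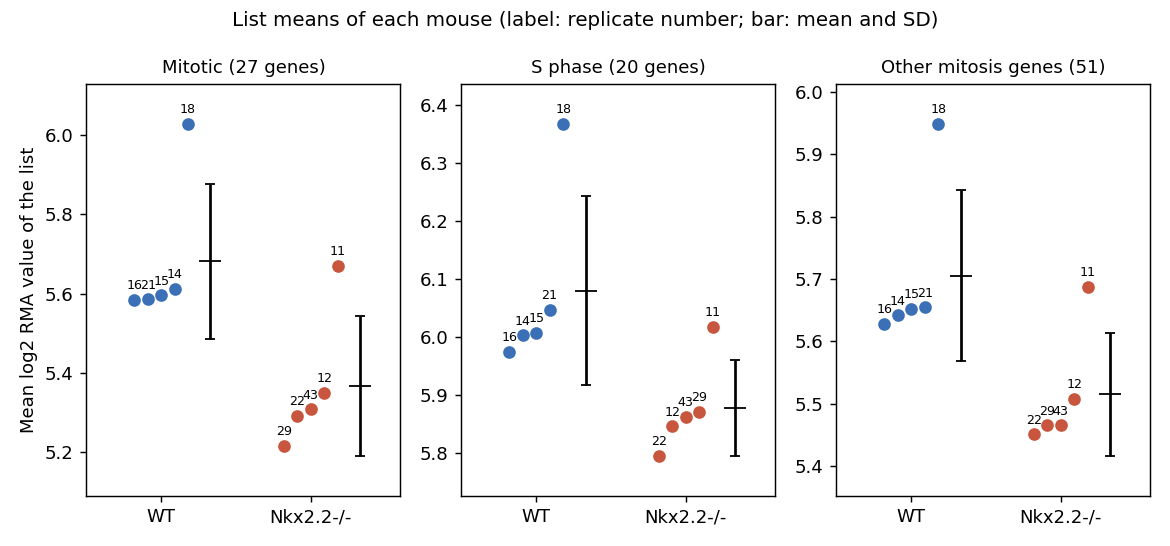
Mean log2 RMA value of each mouse (points, labelled by replicate number) over 27 mitotic genes, 20 S-phase genes and 51 other mitosis genes, in wild type (blue) and Nkx2.2-/- (red), with group mean and SD in black; each panel has its own y axis, which does not start at 0. In all 3 panels wild-type replicate 18 and Nkx2.2-/- replicate 11 are the highest of their groups and the other 4 Nkx2.2-/- mice lie below all wild-type mice.

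Those same 2 mice were highest gene by gene. Wild-type replicate 18 was the highest wild-type mouse for 40 of 49 members, 24 of 27 mitotic and 14 of 20 S-phase, and for 15.4% of all genes. Nkx2.2-/- replicate 11 was the highest mutant for 37 members, 24 mitotic and 11 of S phase, and for 16.6% of all genes. For 23 members, 16 mitotic and 7 of S phase, at least 4 of the 5 Nkx2.2-/- mice lay below the lowest wild-type mouse, which held for 2.35% of all genes. Complete separation was seen for 3 members, Cenpa, Mcm4 and Rfc4, and for 0.528% of all genes in this direction. It was seen the other way for 0 members and 0.154% of all genes. These counts use the brightest probe set of each gene, and in the other probe sets of Cenpa, Mcm4 and Rfc4 the groups overlapped. The spread between mice of 1 genotype was wide for these genes, with a median pooled SD of 0.187 against 0.109 over all genes.

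**Figure D2:**
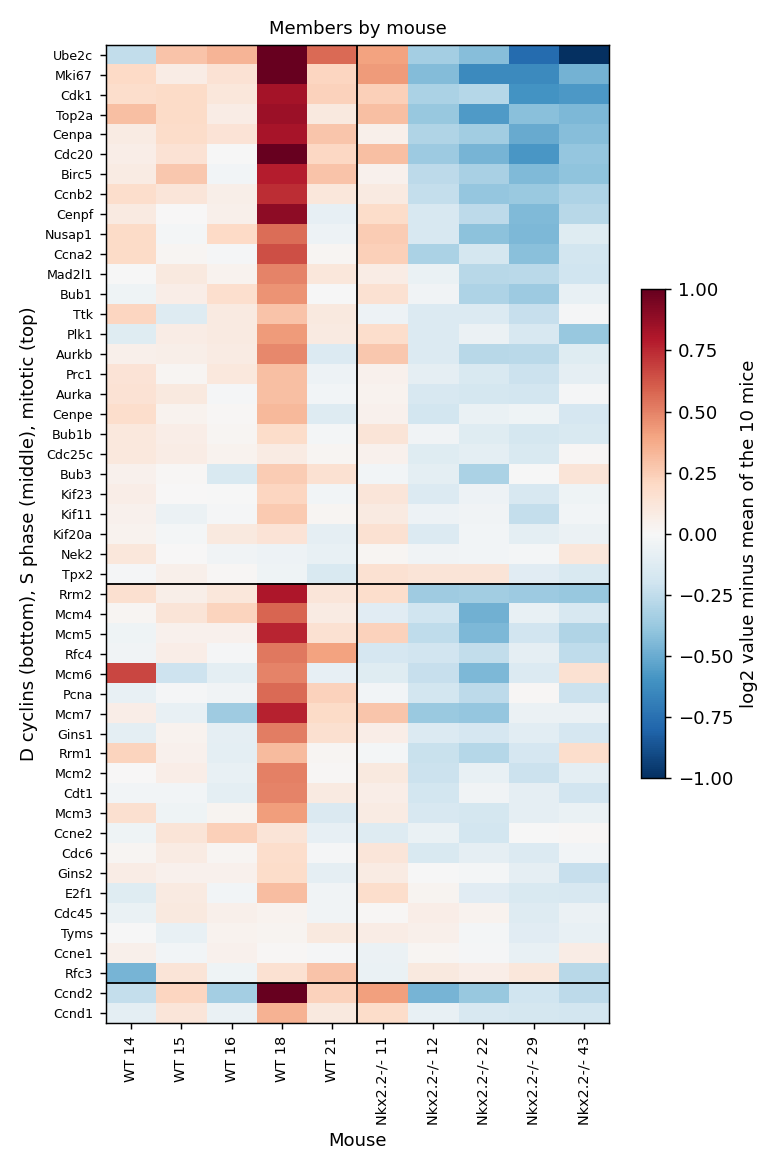
Log2 value of each of the 49 members in each mouse minus that gene's mean over the 10 mice (colour, red higher and blue lower, limited at 1, which 5 cells exceed), with mitotic genes on top, S-phase genes in the middle and D cyclins at the bottom. The column of wild-type replicate 18 is the reddest, that of Nkx2.2-/- replicate 11 resembles the other wild-type columns for mitotic genes, and the other 4 Nkx2.2-/- columns are mostly blue.

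Among regulators of mitotic entry, Cdk1, the kinase that starts mitosis, lay at 6.16, 6.17, 6.10, 6.81 and 6.21 in the wild-type mice and 6.22, 5.66, 5.69, 5.38 and 5.41 in the Nkx2.2-/- mice. Nkx2.2-/- replicate 11 was among the wild-type values and the other 4 mutants were below them all. The difference was -0.62 (SE 0.176), or 1.53-fold lower (limma adjusted p = 0.9996). Ccnb2, a B cyclin that activates Cdk1, lay at 5.49, 5.43, 5.38, 6.05 and 5.43 in the wild-type mice and 5.40, 5.08, 4.93, 4.94 and 5.01 in the Nkx2.2-/- mice. The groups overlapped through replicate 11 alone, and the difference was -0.48 (SE 0.135) (limma adjusted p = 0.995). Ccna2, cyclin A2, had a difference of -0.34 (SE 0.148), and Cdc25c, the phosphatase that activates Cdk1, one of -0.13 (SE 0.0474). Plk1, the polo kinase, was at -0.22 (SE 0.112), Aurka, of the spindle poles, at -0.20 (SE 0.0720), and Aurkb, of the chromosomal passenger complex, at -0.22 (SE 0.126).

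Mki67, the antigen that marks cycling cells, lay at 6.29, 6.17, 6.23, 7.21 and 6.30 in the wild-type mice and 6.51, 5.66, 5.45, 5.45 and 5.62 in the Nkx2.2-/- mice. Wild-type replicate 18 was far above its group, and Nkx2.2-/- replicate 11 exceeded the 4 other wild-type mice. The difference was -0.70 (SE 0.241), or 1.63-fold lower (limma adjusted p = 0.9996). Top2a, the topoisomerase that untangles sister chromatids, lay at 6.39, 6.28, 6.16, 6.94 and 6.19 in the wild-type mice and 6.39, 5.71, 5.52, 5.67 and 5.64 in the Nkx2.2-/- mice. Its 4 lower mutants were all below the wild-type range, and the difference was -0.61 (SE 0.184), or 1.52-fold lower (limma adjusted p = 0.9996).

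At the kinetochore, Cenpa, the histone H3 variant of centromeres, lay at 5.68, 5.79, 5.74, 6.43 and 5.88 in the wild-type mice and 5.65, 5.30, 5.26, 5.10 and 5.18 in the Nkx2.2-/- mice. The groups did not overlap, though Nkx2.2-/- replicate 11 lay just under the lowest wild-type mouse. The difference was -0.61 (SE 0.146), or 1.52-fold lower, with the lowest p among members (limma adjusted p = 0.749). Birc5, survivin of the chromosomal passenger complex, lay at 5.47, 5.66, 5.36, 6.18 and 5.67 in the wild-type mice and 5.43, 5.13, 5.07, 4.95 and 4.99 in the Nkx2.2-/- mice. Only replicate 11 of the mutants reached the wild-type range, and the difference was -0.56 (SE 0.145) (limma adjusted p = 0.899). Ttk, the checkpoint kinase Mps1, lay at 5.04, 4.70, 4.91, 5.11 and 4.92 in the wild-type mice and 4.77, 4.69, 4.69, 4.60 and 4.82 in the Nkx2.2-/- mice. Its groups overlapped, with wild-type replicate 15 among the mutants, and the difference was -0.23 (SE 0.0757) (limma adjusted p = 0.9996).

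Other checkpoint and centromere members were also lower in sign. Mad2l1 and Bub1, which hold back anaphase, had differences of -0.29 (SE 0.102) and -0.25 (SE 0.115), Bub1b one of -0.14 (SE 0.0646) and Bub3 one of -0.12 (SE 0.0917). Cenpe, a kinetochore motor, was at -0.17 (SE 0.0825) and Cenpf at -0.38 (SE 0.180). All of these missed the threshold, with a limma adjusted p of 0.9996 each.

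At mitotic exit, Ube2c, the ubiquitin-conjugating enzyme of the anaphase-promoting complex, had the largest difference of any member and is named for that after its values were seen. It lay at 5.81, 6.34, 6.40, 7.26 and 6.63 in the wild-type mice and 6.46, 5.72, 5.63, 5.29 and 5.04 in the Nkx2.2-/- mice. Both groups spread widely and overlapped, with wild-type 14 low and mutant 11 high. Wild-type 14 and mutant 43, the arrays of low 5 prime Gapdh signal, were the lowest of their groups. The difference was -0.86 (SE 0.291), or 1.82-fold lower (limma adjusted p = 0.9996). Cdc20, which activates that complex, had a difference of -0.60 (SE 0.220) in its brightest probe set. Its dimmer probe sets were at -0.31 (SE 0.127) and -0.07 (SE 0.0554). The spindle and midzone genes Nusap1, Prc1, Kif23, Kif11 and Kif20a had differences of -0.35, -0.20, -0.11, -0.10 and -0.07. Another Kif11 probe set, brighter in wild type (5.13 against 5.02), had a difference of -0.40 (SE 0.109, limma adjusted p = 0.9997 over all probe sets), and averaged over its 3 probe sets Kif11 was at -0.17.

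The mitotic members nearest to 0 were Nek2 and Tpx2, the only members higher in sign. Nek2, a centrosomal kinase, lay at 5.63, 5.51, 5.47, 5.46 and 5.44 in the wild-type mice and 5.53, 5.48, 5.49, 5.49 and 5.63 in the Nkx2.2-/- mice, a difference of 0.02 (SE 0.0491) with overlapping groups. Tpx2, the activator of Aurka on spindle microtubules, lay at 5.31, 5.37, 5.33, 5.28 and 5.17 in the wild-type mice and 5.47, 5.45, 5.45, 5.21 and 5.17 in the Nkx2.2-/- mice, a difference of 0.06 (SE 0.0719). These values are of the brightest probe set of each gene. The dimmer ones of Nek2 were lower in sign, down to -0.20. For Tpx2 the next brightest was also higher, at 0.06, and the dimmer rest were lower, down to -0.21. Averaged over all their probe sets both genes turned negative, at -0.07 each.

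**Figure D3:**
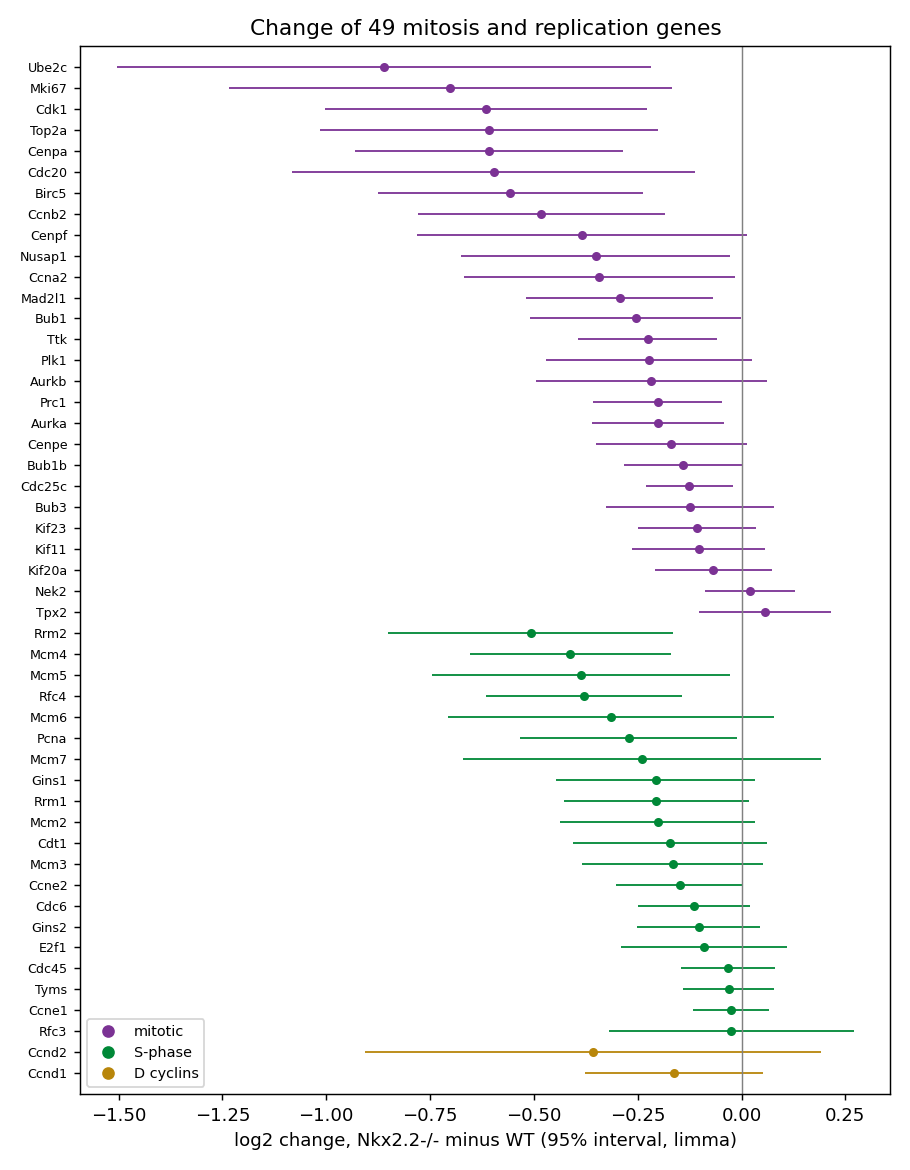
Log2 difference, Nkx2.2-/- minus wild type (x axis), of the 49 members with its 95% interval from limma, ordered within mitotic (purple), S-phase (green) and D cyclin (gold) genes. Points of 47 members lie left of 0; the intervals, which are not adjusted for the number of genes, exclude 0 for 21.

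Of the replicative helicase, Mcm4 lay at 6.19, 6.30, 6.39, 6.74 and 6.24 in the wild-type mice and 6.05, 5.97, 5.69, 6.09 and 6.00 in the Nkx2.2-/- mice. The groups did not overlap, and here Nkx2.2-/- replicate 11 was not the highest mutant. Its difference was -0.41 (SE 0.110), or 1.33-fold lower (limma adjusted p = 0.924). Another Mcm4 probe set, at 6.16 in wild type and 5.97 in Nkx2.2-/- mice, had a difference of -0.19 (SE 0.111), and its groups overlapped. Mcm5 lay at 6.11, 6.19, 6.19, 6.91 and 6.30 in the wild-type mice and 6.38, 5.89, 5.70, 5.96 and 5.84 in the Nkx2.2-/- mice, with replicate 11 inside the wild-type range and a difference of -0.39 (SE 0.163) (limma adjusted p = 0.9996). Mcm2 lay at 6.78, 6.84, 6.71, 7.28 and 6.79 in the wild-type mice and 6.88, 6.56, 6.71, 6.56 and 6.68 in the Nkx2.2-/- mice. Replicate 11 lay inside the wild-type range, replicate 22 level with its lowest mouse, and the difference was -0.20 (SE 0.107) (limma adjusted p = 0.9996). Mcm6, whose promoter stretch is shown above, lay at 7.15, 6.28, 6.38, 6.98 and 6.40 in the wild-type mice and 6.36, 6.25, 6.03, 6.34 and 6.63 in the Nkx2.2-/- mice. Its highest mouse was wild-type replicate 14, the groups overlapped, and the difference was -0.31 (SE 0.178) (limma adjusted p = 0.9996). Mutant 43 was the highest of its group, and both mice gave the arrays flagged above by their Gapdh control signals. A dimmer Mcm6 probe set had a difference of -0.33 (SE 0.123, limma adjusted p = 0.9997 over all probe sets). There the groups narrowly did not overlap, and neither replicate 14 nor replicate 43 was the highest of its group. The dimmest probe set was at -0.04 (SE 0.0574). A link between the Gapdh control signal and these values was not tested. The other subunits Mcm7 and Mcm3 had differences of -0.24 and -0.17, so all 6 were lower in sign and 0 passed over all genes. Their partners Cdc45, Gins1 and Gins2 were at -0.03, -0.21 and -0.10, and the loaders Cdc6 and Cdt1 at -0.11 and -0.17.

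Pcna, the sliding clamp, lay at 8.74, 8.80, 8.77, 9.38 and 9.04 in the wild-type mice and 8.78, 8.63, 8.55, 8.82 and 8.59 in the Nkx2.2-/- mice. Wild-type replicates 18 and 21 were above all mutants, the other 3 wild-type mice were not, and the difference was -0.27 (SE 0.118) (limma adjusted p = 0.9996). Rfc4, a subunit of the complex that loads the clamp, lay at 5.65, 5.75, 5.68, 6.21 and 6.09 in the wild-type mice and 5.52, 5.49, 5.44, 5.60 and 5.43 in the Nkx2.2-/- mice. All mutants lay below all wild-type mice and close together, at a difference of -0.38 (SE 0.107) (limma adjusted p = 0.9996). A dimmer Rfc4 probe set, at 4.95 in wild type, had a difference of -0.13 (SE 0.0933), and its groups overlapped. Rfc3, another subunit of the same complex, lay at 6.00, 6.60, 6.42, 6.62 and 6.75 in the wild-type mice and 6.40, 6.57, 6.54, 6.58 and 6.19 in the Nkx2.2-/- mice. Here the groups overlapped fully, with wild-type 14 and mutant 43 the lowest of their groups. The difference was -0.02 (SE 0.133) with limma adjusted p = 0.9996, and its sign turned in 9 of the 22 alternative settings.

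Rrm2, the small subunit of ribonucleotide reductase, lay at 6.79, 6.70, 6.75, 7.45 and 6.76 in the wild-type mice and 6.81, 6.28, 6.29, 6.27 and 6.26 in the Nkx2.2-/- mice. Replicate 11 was among the wild-type values, and the other 4 mutants were within 6.26 to 6.29, below every wild-type mouse. The difference was -0.51 (SE 0.156), or 1.42-fold lower (limma adjusted p = 0.9996). Rrm1, the large subunit, had a difference of -0.21 (SE 0.101). Tyms, which makes thymidylate, had one of -0.03 (SE 0.0497) in its brightest single-gene probe set, which is dim at 4.39 in wild type. A brighter probe set shared with the pseudogene Tyms-ps had a difference of -0.16, from 5.43, and cannot be assigned to either.

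Of the cyclins at the start of S phase, Ccne2 lay at 4.66, 4.84, 4.95, 4.84 and 4.62 in the wild-type mice and 4.57, 4.64, 4.52, 4.70 and 4.72 in the Nkx2.2-/- mice, with overlapping groups and a difference of -0.15 (SE 0.0693) (limma adjusted p = 0.9996). Ccne1 lay at 6.04, 5.95, 6.02, 5.99 and 5.97 in the wild-type mice and 5.92, 6.00, 5.97, 5.90 and 6.05 in the Nkx2.2-/- mice. Its groups overlapped, and its difference of -0.03 (SE 0.0413) turned positive, to 0.0057 and 0.0058, with a common median and with quantile normalization. E2f1, a transcription factor of S-phase entry, had a difference of -0.09 (SE 0.0906).

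The D cyclins respond to growth signals in G1. Ccnd2 lay at 7.26, 7.72, 7.16, 8.52 and 7.73 in the wild-type mice and 7.91, 7.04, 7.12, 7.30 and 7.24 in the Nkx2.2-/- mice. Wild-type replicate 18 and Nkx2.2-/- replicate 11 were again the highest of each group, and the difference was -0.36 (SE 0.248) (limma adjusted p = 0.9996). Ccnd1 lay at 6.73, 6.96, 6.77, 7.18 and 6.93 in the wild-type mice and 7.02, 6.76, 6.67, 6.66 and 6.65 in the Nkx2.2-/- mice, with overlapping groups and a difference of -0.16 (SE 0.0968) (limma adjusted p = 0.9996). All 10 probe sets of the pair were lower in sign, and their median difference was -0.32.

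Most members had several probe sets, and these did not always read alike. Of the 121 probe sets, 108 were lower and 13 higher in sign, where 49.2% of all 45037 were lower. None passed the test over all probe sets in limma (lowest adjusted p = 0.888), where 0.0511% of all probe sets passed as lower. At an unadjusted p under 0.05, 35 were lower and 0 higher, against 2.35% and 1.08% of all probe sets. Of 38 members with several single-gene probe sets, 10 had differences of both signs: Bub3 (-0.12 to 0.07), Cdt1 (-0.17 to 0.03), Cenpa (-0.61 to 0.01), Cenpf (-0.38 to 0.02), E2f1 (-0.09 to 0.05), Kif23 (-0.11 to 0.07), Nek2 (-0.20 to 0.02), Tpx2 (-0.21 to 0.06), Ttk (-0.23 to 0.05) and Tyms (-0.11 to 0.03).

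Level and difference are set side by side here only as a description, since a probe set's level depends on its probes as well as on the transcript. The 61 member probe sets at or above the median level of all probe sets (5.09) had a median difference of -0.24, and 59 of them were lower in sign. The 60 dimmer ones had a median of -0.07, with 49 lower. Across the 121 probe sets the level and the difference had Pearson's r = -0.52 and Spearman's rho = -0.61, and across the 49 members r = -0.22 and rho = -0.35; probe sets of a gene share transcripts and all share the 10 arrays. For Cenpa, differences ran from -0.61 in the brightest probe set to 0.01 in the dimmest, and for Top2a from -0.61 to -0.01. The order was the other way for Bub1b (-0.14 in the brightest and -0.27 in the next), Mcm2 (-0.20 and -0.35) and Gins2 (-0.10 and -0.21).

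**Figure D4:**
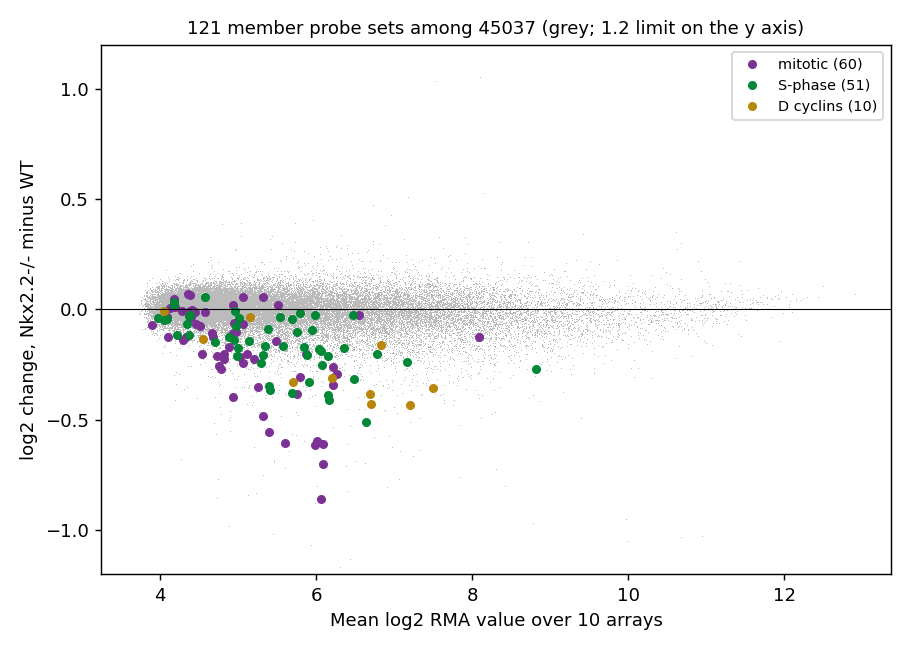
Mean log2 RMA value over 10 arrays (x axis) against the log2 difference, Nkx2.2-/- minus wild type (y axis), for all 45037 probe sets (grey) and the 121 member probe sets, coloured by phase; 19 grey probe sets lie beyond the y axis limit of 1.2. Member probe sets with a mean near 4 lie near 0, and those with a mean near 6 reach furthest down.

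Cell cycle genes outside the 49 were read from further lists. Of 51 other genes of mitosis, 46 were lower in sign, 0 passed over all genes and 20 had an unadjusted limma p under 0.05, all lower, at a median difference of -0.15. Over all genes 53% were lower in sign and 2.71% lower at that p. Spc25, of the Ndc80 kinetochore complex, had the lowest p (-0.57, SE 0.138, limma adjusted p = 0.749), ahead of Espl1, the separase that cuts cohesin (-0.22, SE 0.0595, limma adjusted p = 0.940), and Incenp, a partner of Aurkb (-0.26, SE 0.0777, limma adjusted p = 0.9996). Groups did not overlap for 3 of the 51, Spc25, Espl1 and Ckap2, and for 0.528% of all genes in this direction. The list mean of the other mitosis genes was 5.71 ± 0.137 in wild type and 5.52 ± 0.0987 in the mutants (SD, n = 5 each).

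Of 38 other genes of replication, 33 were lower in sign, 0 passed and 5 had an unadjusted limma p under 0.05, all lower, at a median of -0.08, where 53% of all genes were lower in sign and 2.71% lower at that p. Gmnn, the inhibitor of Cdt1, was at -0.22 (SE 0.0668), Gins4 at -0.19 (SE 0.0726) and Uhrf1, which guides maintenance of DNA methylation, at -0.64 (SE 0.248), each with a limma adjusted p of 0.9996. Of 28 brakes and regulators of the cycle, 20 were lower and 8 higher in sign, 0 passed and 3 had an unadjusted limma p under 0.05, all lower, again beside 53% and 2.71% of all genes. These were Ccng1, a p53 target (-0.23, SE 0.0538, limma adjusted p = 0.652), Gadd45a (-0.16, SE 0.0602) and the inhibitor Cdkn2c (-0.22, SE 0.0871). The median of the brakes and regulators was -0.08.

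Regional markers differed between mice within each genotype. The mean over 8 cerebellar granule precursor markers was 6.36, 6.44, 6.31, 7.17 and 6.94 in the wild-type mice and 6.97, 6.42, 6.29, 6.38 and 6.39 in the Nkx2.2-/- mice. Wild-type replicates 18 and 21 and Nkx2.2-/- replicate 11 were high and the other 7 mice lay within 6.29 to 6.44. The list holds Atoh1, Barhl1, Zic1, Neurod1, Pax6, Gli1, Cbln1 and Cbln3 and is not confined to dividing cells. Neurod1 had the widest spread of these, with an SD of 0.906 in wild type and 0.998 in the mutants. Of the 8 markers 7 were lower in sign and 0 passed, where 53% of all genes were lower in sign. Those of lowest p were Neurod1 (-0.64, SE 0.521), Cbln1 (-0.18, SE 0.172) and Gli1 (-0.10, SE 0.102), each with a limma adjusted p of 0.9996. Atoh1, which defines these precursors, was at 5.17 ± 0.277 in wild type and 5.13 ± 0.218 in the mutants (SD, n = 5 each). Wild-type replicate 21, high in cerebellar markers, had a mitotic mean of 5.59, near those of wild-type replicates 14, 15 and 16. Its S-phase mean of 6.05 was the highest in wild type after replicate 18.

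The mean over 7 caudal Hox genes, which mark spinal cord, was 5.04, 5.09, 5.27, 5.09 and 5.24 in the wild-type mice and 5.19, 5.21, 5.88, 5.86 and 5.46 in the Nkx2.2-/- mice. Nkx2.2-/- replicates 22, 29 and 43 were above all wild-type mice and replicates 11 and 12 were within their range. All 7 were higher in sign and 0 passed, where 53% of all genes were lower in sign and 0% passed as higher. At an unadjusted limma p under 0.05, 2 were higher, Hoxc8 (1.33, SE 0.454) and Hoxd8 (0.32, SE 0.115), against 0.517% of all genes. The 3 mutants high in the Hox mean were among the 4 with a low mitotic mean. Replicate 12, within the wild-type Hox range, had a mitotic mean of 5.35, also below every wild-type mouse. These are values of single mice, and the part of the dissected regions in the cell cycle differences was not tested.

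**Figure D5:**
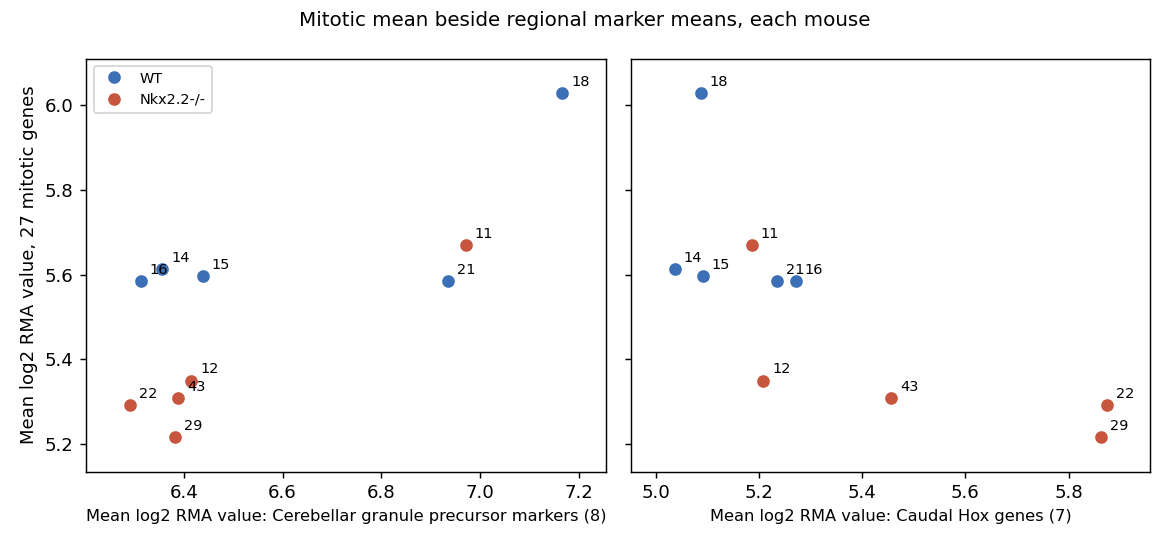
Mean log2 RMA value over 27 mitotic genes (y axis) beside the mean over 8 cerebellar granule precursor markers (left) and 7 caudal Hox genes (right) in each mouse, labelled by replicate number. Among the 7 mice of low cerebellar mean, the 3 wild-type mice lie at 5.58 to 5.61 and the 4 mutants at 5.22 to 5.35; the mutants 22, 29 and 43 are the furthest right in the Hox panel.

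Single arrays and regional covariates moved these results. Without wild-type replicate 18 the mean difference was -0.23 over mitotic members and -0.13 over S-phase members. With the caudal Hox mean as a covariate the mitotic mean difference was -0.16, and 3 members had an unadjusted limma p under 0.05, against 3.24% of all genes; 0 passed, against 0.022%. That covariate itself differs between the genotypes. With the cerebellar mean as a covariate the mean differences were -0.24 and -0.15, 0 members passed, against 0.055% of all genes, and 20 were lower at an unadjusted limma p under 0.05, against 2.57% of all genes.

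In a setting chosen after seeing the data, the array of highest cerebellar mean in each genotype was left out, which removes replicate 18 of the wild-type and replicate 11 of the mutant mice. Then 7 members passed limma over all genes, all lower, where 0.115% of all genes passed as lower. They were Rrm2 (-0.48, SE 0.0431, adjusted p = 0.00661), Mki67 (-0.70, SE 0.0657, adjusted p = 0.00735), Top2a (-0.62, SE 0.0675, adjusted p = 0.0155), Cdk1 (-0.62), Cenpa (-0.57), Cdc20 (-0.55) and Ccnb2 (-0.44). These 2 mice are also the highest of their groups in the members themselves, so this choice is not independent of the members' values. Without all 3 arrays of high cerebellar mean, wild-type 18 and 21 and Nkx2.2-/- 11, 2 members passed, Rrm2 and Mki67 (limma adjusted p = 0.0417 each), where 0.0495% of all genes passed as lower. The mean differences were -0.31 and -0.15 in that setting, over mitotic and S-phase members.

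Markers of the other cells that this tissue could hold were read beside these values, and are given as wild-type and Nkx2.2-/- means (SD, n = 5 each). The mean over 8 oligodendrocyte precursor markers was 7.28 ± 0.0430 and 7.36 ± 0.115, with 6 of 8 higher in sign. Within that list Pdgfra, the growth factor receptor of these precursors, was at 0.52 (SE 0.161) and Gpr17, of cells about to mature, at -0.39 (SE 0.110), each with a limma adjusted p of 0.9996. Wild-type 18 and mutant 11, the highest of their groups in the cell cycle genes, were the lowest of their groups in oligodendrocyte precursor markers (7.24 and 7.17). They were also lowest in neuronal markers (10.22 and 10.07) and myelin genes (7.04 and 6.10). In radial glia and neural progenitor markers the same mice were the highest of their groups (8.02 and 7.94). For 9 markers of radial glia and neural progenitors the mean was 7.88 ± 0.106 and 7.79 ± 0.0853, with 6 of 9 lower in sign. For 6 microglial markers it was 6.46 ± 0.0932 and 6.35 ± 0.151, for 5 endothelial markers 5.90 ± 0.135 and 5.87 ± 0.0601, and for 4 red cell markers 5.56 ± 0.0823 and 5.58 ± 0.0623. For 5 meningeal markers it was 7.23 ± 0.595 and 6.81 ± 0.247, with all 5 lower in sign, and for 7 neuronal markers 10.3 ± 0.0634 and 10.3 ± 0.188. None of the markers of these lists passed over all genes in limma. All 5 myelin genes were lower in sign and 4 passed over all genes in limma, where 0.0605% of all genes passed as lower. The other, Mog, did not pass (-0.30, limma adjusted p = 0.233). The myelin list mean was 7.30 ± 0.153 and 6.23 ± 0.0903, and no mutant overlapped a wild-type mouse. The part of these cell types in the cell cycle differences was not tested.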

How the data were processed

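The values were log2 RMA values deposited by the authors (background-corrected, quantile-normalized and summarised per probe set), from biotinylated cRNA on an Affymetrix mouse array, 1 array per mouse. RMA is named per the submitters' processing notes (version: not given in the sources used here). Of 45037 non-control probe sets, 34945 carried 1 gene symbol in the platform annotation, 932 several and 9160 none.

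Each of 18193 genes was represented by its brightest single-gene probe set, and no filter on low values was applied. Genotypes were compared with limma 3.58.1 in R 4.3.3 (lmFit and eBayes, two-sided, Benjamini-Hochberg adjustment over all genes, threshold 0.05), fitted on all 10 arrays without covariates. The script was tested on simulated data. Python 3.11.15, pandas 2.3.3 and matplotlib 3.10.9 were used for summaries and plots. Levels in different probe sets are not comparable between genes, and array values carry no counts, so the number of arrays limits the precision.

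The members and all lists were chosen with earlier results of these data known, so no p-value is given for a list. Values of every mouse are given for 8 preset genes, for the 6 mitotic and 6 S-phase members of lowest p, and for the 2 nearest to 0 in each. Mcm6, whose promoter stretch is shown, was added outside this choice. From the other cell cycle lists the 3 genes of lowest p are named. Ube2c was added after its values were seen, as were Ckap2, the marker genes named and the members passing in added settings. Ccnb1 and some genes of the other lists were not analysed here. Alternatives covered normalization, dim genes, the choice of probe set, the variance prior, array weights, regional covariates and arrays left out.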

Additional observations from a re-analysis of the deposited data

Results flagged for a closer look

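In 20 of 104 groups of 5 mice examined, 1 mouse stood apart from the other 4 by more than 0.71 of the group's range. Chance gives such a gap, at either end of the range, in about 1 of 20 groups. The genes share arrays, so these are not 20 separate events. In all 20 the mouse that stood apart was the highest. Each one was wild-type replicate 18 or Nkx2.2-/- replicate 11. Wild-type replicate 18 stood apart in the mean over mitotic members (6.03, next mouse 5.61), over S-phase members (6.37, next 6.05) and over all members (6.24, next 5.85). It also stood apart for the mitotic genes Mki67 (7.21, next 6.30), Cdk1 (6.81, next 6.21), Ccnb2 (6.05, next 5.49), Mad2l1 (6.77, next 6.38), Cdc20 (7.09, next 6.21), Cenpa (6.43, next 5.88) and Cenpf (6.65, next 5.85). Among S-phase genes it did so for Mcm2 (7.28, next 6.84), Mcm5 (6.91, next 6.30) and Rrm2 (7.45, next 6.79).

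Nkx2.2-/- replicate 11 stood apart in the mean over all members (5.89, next mouse 5.62). The mitotic genes concerned were Mki67 (6.51, next 5.66), Top2a (6.39, next 5.71), Aurkb (5.29, next 4.90) and Cdc20 (6.31, next 5.64), and the S-phase genes were Gins1 (5.38, next 5.21) and Rrm2 (6.81, next 6.29).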

How the results depend on the processing

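The number of members passing over all genes was 0 at the adjusted p threshold of 0.05 under every alternative but 2, with a limma adjusted p of 0.110 as the lowest among the others (cerebellar covariate). Those 2 were chosen after seeing the data: 7 passed with wild-type 18 and Nkx2.2-/- 11 left out together, and 2 without those and wild-type replicate 21. At an unadjusted p under 0.05 the count was 21 (2.71% of all genes lower), and 38 with array weights (6.56%), 3 with the caudal Hox covariate (3.24%) and 15 to 30 with 1 array left out (1.89% to 3.91%). With 1 array left out the mean difference was -0.39 to -0.23 over mitotic members, -0.24 to -0.13 over S-phase members and -0.33 to -0.18 over all, lowest in size without wild-type replicate 18. With dim genes left out 22 members remained, and the mitotic mean difference was -0.48. Without both arrays of low 5 prime Gapdh signal the mean difference was -0.32 over mitotic and -0.22 over S-phase members. In that setting 21 members were lower at an unadjusted limma p under 0.05, against 2.97% of all genes. Of 1051 member values over 22 alternatives, 1022 kept their sign and side of the threshold, 9 newly passed and 20 turned sign, all of members near 0, and the cause was not tested. Rfc3 turned positive with the cerebellar covariate (0.018), a common median (0.0063), quantile normalization (0.00085), without both arrays of highest cerebellar mean (0.024), without all 3 (0.13), and in 4 of the 10 fits with 1 array left out, which ran from -0.144 to 0.044. Nek2 turned to -0.069 and Tpx2 to -0.075 with the mean of probe sets, and to -0.016 and -0.020 without the 3 arrays of high cerebellar mean; with 1 array left out Nek2 ran from -0.0052 to 0.053. Tyms turned to 0.018 with array weights and 0.017 with the Hox covariate, which also turned E2f1 (0.035) and Cdc45 (0.0053). Ccne1 turned to 0.0057 with a common median and 0.0058 with quantile normalization. The groups share no replicate numbers and the labels give no litter for each mouse, so no paired analysis was made and a litter effect was not tested. With 5 mice per group and wide spread in these genes, differences of the size seen did not pass over all genes. Each limma p-value sets a difference against the spread between these mice, with the variance of each gene drawn toward that of all genes.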
